A study of Mus musculus with 12 samples.

Results

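The 9 genes Sqle, Lss, Cyp51, Tm7sf2, Msmo1, Nsdhl, Hsd17b7, Sc5d and Dhcr7 encode enzymes that carry squalene to cholesterol, and they were chosen by name for that role, with earlier results of these arrays known. All 9 were above background on all 12 arrays, and they are 9 of the 9747 genes that could be tested. The arrays measured RNA from the livers of male C57BL/6 mice aged 8 weeks on Illumina bead arrays, with 3 arrays in each of 4 groups. Control mice are labelled as injected with nothing, and the other groups were injected daily into the abdomen with L-T3 over 3 days, with XCT790 over 4 days, or with XCT790 over 4 days and L-T3 on the last 3 of them. L-T3 (T3 from here on) is liothyronine, the active thyroid hormone, and XCT790 is an inverse agonist of ESRRA, a nuclear receptor. The study asks how ESRRA and thyroid hormone together shape the turnover of mitochondria in the liver. Whether controls were given a vehicle is not stated, so injection and compound cannot be told apart in any comparison that uses the control arrays. Comparisons between injected groups carry a like limit. For T3 in mice given XCT790 and for XCT790 in mice given T3, the added compound may have come with added injections or injection days. The labels also do not say that each array came from a mouse of its own. The p-values therefore measure the spread between arrays, which may be technical.

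Cholesterol is built from acetyl-CoA through mevalonate to squalene, which is then oxidised, closed into the ring system of lanosterol and trimmed of its extra methyl groups. The liver is a main site of this synthesis, and the transcription factor SREBP2, encoded by Srebf2, raises the genes of the whole chain when sterols in the membrane of the endoplasmic reticulum run low. Thyroid hormone is known to lower blood cholesterol and to raise its turnover in the liver.

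Promoters of these genes are known to be driven by SREBP2 together with NF-Y, which binds the letters CCAAT. The stretch around the CCAAT nearest upstream of an annotated start is therefore shown for each gene that had a promoter window. RefSeq windows on GRCm38.p6, running from 250 bases before the start to 50 after it, were matched for 8 of the 9 genes by symbol. For Dhcr7 the stretch comes from the window at chr7:143829964-143830263, a later start inside the gene. Its windows nearer the first base of the gene, at 143823167, hold no CCAAT. The capitals mark CCAAT, or ATTGG where the box lies on the other strand, and each stretch reads 5′ to 3′ on the strand of its gene.
Lss, chr10:76531525-76531565, plus strand: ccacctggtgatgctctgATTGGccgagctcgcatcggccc
Cyp51, chr5:4104704-4104744, minus strand: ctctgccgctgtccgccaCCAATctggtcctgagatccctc
Tm7sf2, chr19:6067875-6067915, minus strand: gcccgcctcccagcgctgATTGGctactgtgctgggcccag
Msmo1, chr8:64733611-64733651, minus strand: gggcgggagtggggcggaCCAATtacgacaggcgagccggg
Nsdhl, chrX:72918483-72918523, plus strand: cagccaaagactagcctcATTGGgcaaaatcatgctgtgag
Hsd17b7, chr1:169969195-169969235, minus strand: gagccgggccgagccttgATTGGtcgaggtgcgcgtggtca
Sc5d, chr9:42264302-42264342, minus strand: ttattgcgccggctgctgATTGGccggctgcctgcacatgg
Dhcr7, chr7:143830147-143830187, plus strand: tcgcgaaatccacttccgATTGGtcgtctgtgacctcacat

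Searched on both strands, CCAAT was present in at least 1 window of 8 of these 8 genes, in 8 of their 10 windows, against 37.4% of all 32851 windows of that length. The GC box GGGCGG, a site for Sp1, was present for 8 of 8 genes and in 9 of 10 windows, against 35.7% of all windows. The E-box CACGTG was found for Hsd17b7, Sc5d and Dhcr7, in 3 of 10 windows, against 7.15% of all windows. A sterol regulatory element in the letters TCACCCCAC, or the looser TCACNCCAC that includes it, was found for 0 of 8 genes, against 0.551% and 1.24% of windows. The ESRRA element TCAAGGTCA was found for 0 of 8 genes, against 0.423% of windows. The receptor core letters AGGTCA that it holds were found for Dhcr7 alone, in 3 of 10 windows, against 16.3% of all windows. The Dhcr7 windows that begin at 143822917 and 143823149 overlap and share a site. In the 8 stretches above, the first base of the box lay between 12 bases (Hsd17b7) and 62 bases (Lss) before the start of its window's transcript. A match is a description of letters, and no match says only that those letters are not in the window.

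**Figure D1:**
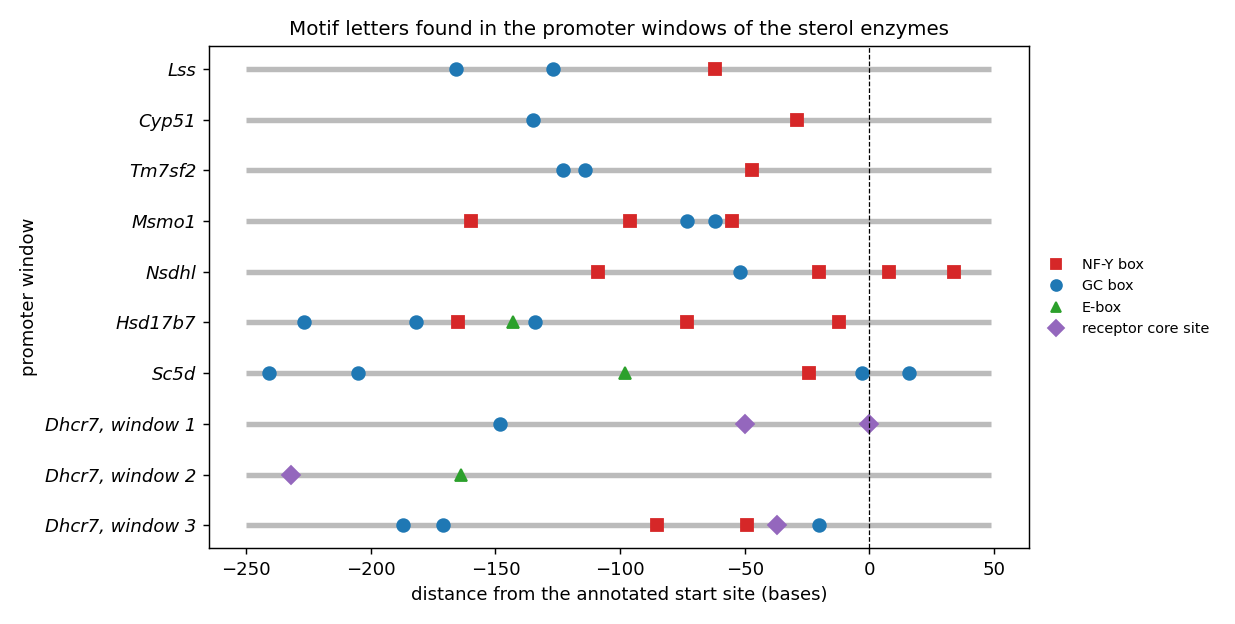
Position of each motif match in the RefSeq promoter windows of 8 sterol enzymes, in bases from the annotated start (dashed line, the first transcribed base is 0). Dhcr7 has 3 windows. Squares (CCAAT, the NF-Y box) and circles (the GC box) appear for all 8 genes, and diamonds (the receptor core letters) for Dhcr7.

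Values below are log2 intensities, corrected for background and quantile-normalized between arrays, of the brightest probe of each gene; a difference of 1 is a doubling. Summed raw intensity ran from 14568457 to 22343383 per array and 31.9% to 35.6% of probes were detected. Over the genes tested, each by its brightest probe, pairs of arrays correlated at 0.989 to 0.992 within a group and at 0.969 to 0.990 between groups. Hepatocyte markers such as Alb and Ttr, 10 of 13 tested, summed to between 175502 and 182585 in linear intensity on every array. Members of that list went both ways with T3, Hnf4a being called higher at a log2 difference of 0.46 (limma adjusted p = 0.0236) and Alb standing at -1.12 without passing (0.0657). Thrsp and Dio1, which thyroid hormone is known to induce, were 2.59 and 2.13 higher on the log2 scale with T3 than in control (limma adjusted p = 2.28e-06 and 3.16e-06). Thrsp was also called higher with XCT790 alone, by 1.23 (adjusted p = 0.00319), where Dio1 stood at -0.19 without passing. Esrra itself was 0.58 higher with T3 and 0.57 higher with XCT790 (adjusted p = 0.00442 and 0.0148); XCT790 acts on the protein, so this is no check of its label. Macrophage markers moved with T3, and their values stand beside the results they accompany. In liver tissue, fewer cells of a type and less RNA per cell cannot be told apart.

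Positions in brackets are those of the genes in RefSeq on GRCm38.p6. Sqle (chr15:59315092-59331193), squalene epoxidase, adds the oxygen that lets squalene close into rings and is a rate-controlling step of this stretch. It read 9.06, 9.65 and 10.03 on the control arrays, 10.84, 10.45 and 11.21 with T3, 8.63, 8.21 and 8.25 with XCT790, and 11.36, 11.29 and 11.17 with both compounds. Every XCT790 array lay below every control array and every T3 array above, and of the T3 arrays only replicate 3 reached the range of the arrays with both.

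Lss (chr10:76531565-76557139), lanosterol synthase, closes the rings. On control arrays it read 7.99, 8.22 and 8.37, with T3 8.32, 7.59 and 8.54, with XCT790 7.54, 7.69 and 7.43, and with both 8.83, 8.61 and 8.87. The arrays with both compounds were above all others, the XCT790 arrays were below control, and T3 replicate 2 fell among the XCT790 arrays. Cyp51 (chr5:4080674-4104697), the demethylase that starts the trimming of lanosterol, read 9.04, 9.24 and 9.27 in control, 9.77, 9.33 and 9.65 with T3, 8.93, 8.60 and 8.54 with XCT790, and 10.41, 10.09 and 10.13 with both. Its 4 groups did not overlap at all, in the order XCT790, control, T3, both. Tm7sf2 (chr19:6062821-6067850) encodes a sterol reductase that acts on the product of Cyp51, a step that Lbr can also carry out. Its readings were 8.10, 8.40 and 8.60 in control, 8.93, 8.79 and 8.95 with T3, 8.31, 7.96 and 8.54 with XCT790, and 8.95, 8.67 and 8.38 with both. Its T3 arrays lay above control and above XCT790, while the arrays with both compounds overlapped every other group.

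Msmo1 (chr8:64718123-64733578), Nsdhl (chrX:72918521-72958528) and Hsd17b7 (chr1:169949535-169969242) act in turn to remove the paired methyl groups at the other end of the molecule, as an oxidase, a decarboxylating dehydrogenase and a ketone reductase. Msmo1 read 10.72, 10.99 and 11.27 in control, 11.79, 11.38 and 11.87 with T3, 10.35, 10.10 and 10.31 with XCT790, and 12.18, 11.88 and 12.07 with both. Nsdhl read 7.20, 6.94 and 7.63 in control, 7.57, 6.85 and 7.45 with T3, 6.95, 6.59 and 6.67 with XCT790, and 8.18, 8.04 and 7.91 with both. Hsd17b7 read 11.06, 11.31 and 11.50 in control, 12.05, 11.95 and 12.44 with T3, 10.97, 10.95 and 10.78 with XCT790, and 12.61, 12.47 and 12.49 with both. Msmo1 and Hsd17b7 had 4 groups without overlap in the same order as Cyp51, though T3 replicate 3 came close to the lowest array with both in each. For Nsdhl the arrays with both compounds stood above all others, and the T3 arrays covered nearly the same range as control.

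Sc5d (chr9:42251592-42264300), a desaturase, and Dhcr7 (chr7:143823167-143848410), a reductase, finish the ring. Sc5d read 7.83, 7.73 and 8.09 in control, 8.11, 8.03 and 7.87 with T3, 6.84, 7.02 and 7.19 with XCT790, and 8.26, 7.95 and 7.79 with both. Only the XCT790 arrays stood apart, below all others. Dhcr7 read 7.27, 7.72 and 7.87 in control, 8.10, 7.42 and 7.93 with T3, 6.83, 6.63 and 7.02 with XCT790, and 8.37, 8.34 and 8.14 with both. Its XCT790 arrays were below and its arrays with both compounds above every other array, with control and T3 overlapping between them. Across the 9 genes, the XCT790 mean was the lowest of the 4 group means in 9 and the mean with both compounds was the highest in 7, the exceptions being Tm7sf2 and Sc5d, whose T3 means were higher.

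**Figure D2:**
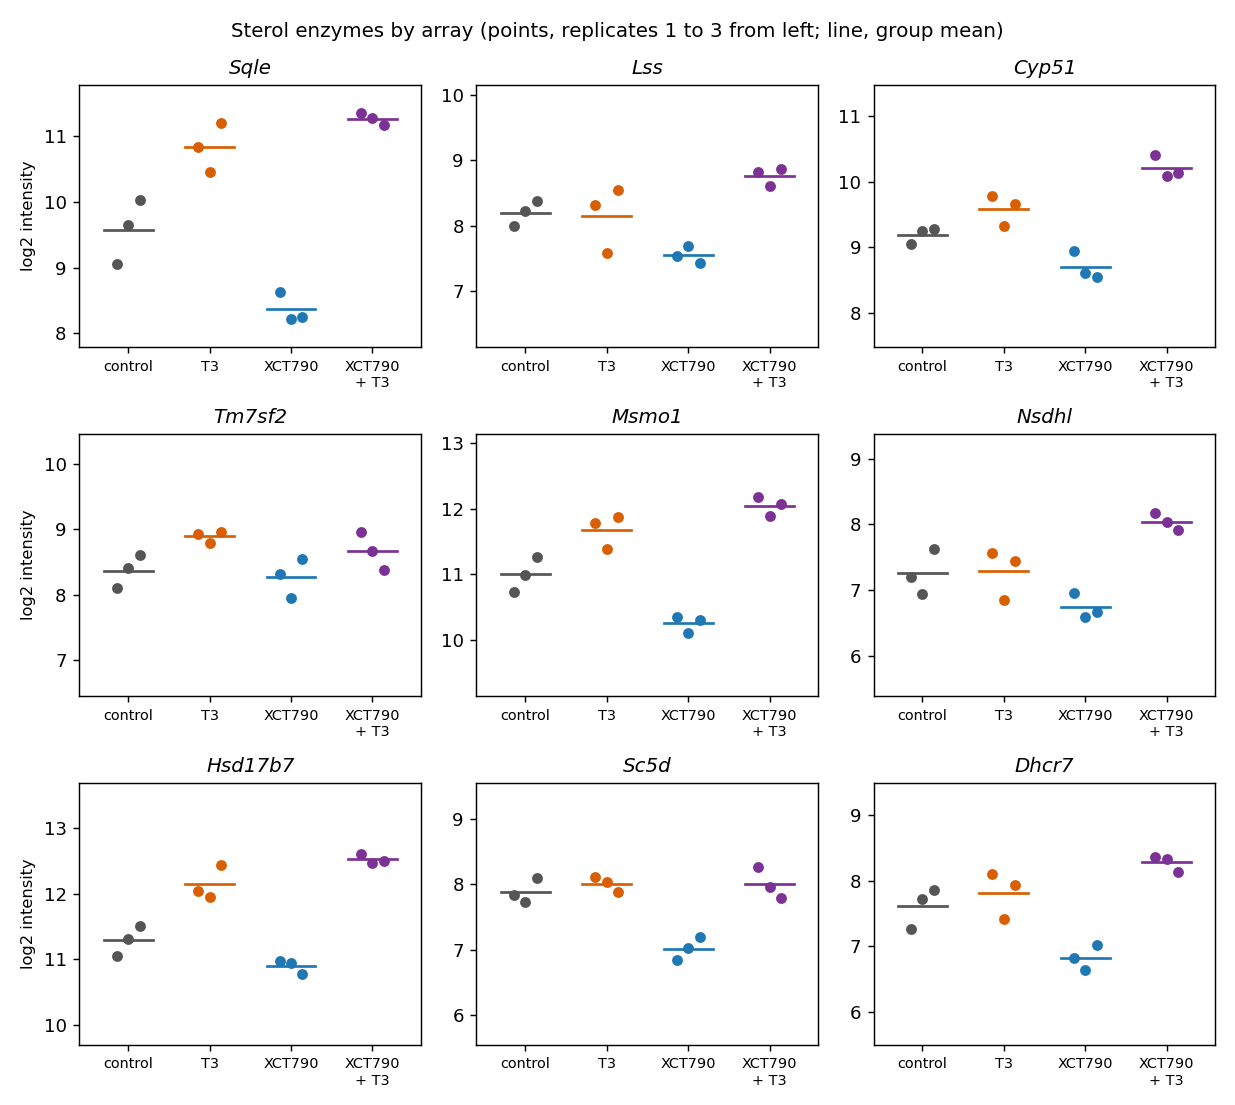
Log2 intensity of each of the 9 sterol enzymes on each array (points, replicates 1 to 3 from left) with the group mean (line); every panel spans the same number of log2 units. Sqle runs from 8.21 to 11.36, and the XCT790 mean is the lowest in every panel.

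T3 without XCT790 raised 3 of the 9 enzymes. Sqle rose 2.38-fold (log2 1.25, SE 0.24, 3 arrays against 3), Hsd17b7 1.81-fold (log2 0.85, SE 0.14) and Msmo1 1.61-fold (log2 0.69, SE 0.16), with limma adjusted p of 0.0035, 0.0018 and 0.0128. Among all genes 7.24% were called higher and 8.91% lower, and none of the 9 fell. Tm7sf2 and Cyp51 were 0.52 and 0.40 higher on the log2 scale without passing (adjusted p = 0.0719 and 0.0905), although their T3 arrays did not overlap control. In all, 5 of the 9 were without overlap on the higher side, against 15.7% of all genes. The remaining Dhcr7, Sc5d, Nsdhl and Lss had differences of 0.20, 0.12, 0.04 and -0.05, with 95% intervals that reached from -0.49 (Lss) to 0.61 (Dhcr7). The median of the 9 was 0.40, against -0.01 over all genes.

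Msmo1 lost its call without control replicate 1 (adjusted p = 0.0536), without T3 replicate 3 (0.0578) and under median scaling (log2 0.62, 0.0828), and Cyp51 gained one without T3 replicate 2 (0.0444). Kupffer cell and macrophage markers, 10 of 12 tested with Cd5l and Cd68 not kept, summed to 2520 to 4321 on control arrays and 5176 to 6269 with T3, and 7 of 10 were called higher. Sinusoidal endothelial markers, 11 of 11 tested, summed to 6812 to 8518 in control and 8536 to 9514 with T3, and 0 of 11 were called. Cholangiocyte markers, 2 of 6 tested with Krt19, Epcam, Spp1 and Cftr not kept, summed to 269 to 444 and 165 to 212. Of these 2, Sox9 was called lower at -0.98 on the log2 scale (limma adjusted p = 0.00533). Krt7 stood at 0.08 without passing (0.830). The part of these cells in the sterol values was not tested.

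XCT790 without T3 lowered 4 of the 9. Sqle fell by 1.22 on the log2 scale (SE 0.24, 2.32-fold), Sc5d fell by 0.86 (SE 0.15, 1.82-fold), Dhcr7 fell by 0.79 (SE 0.19, 1.73-fold) and Msmo1 fell by 0.74 (SE 0.16, 1.67-fold), with limma adjusted p of 0.0136, 0.0061, 0.0395 and 0.0251. Among all genes 2.15% were called lower. The other enzymes were lower without passing, Lss by a log2 difference of -0.64 (adjusted p = 0.108), Nsdhl of -0.52 (0.199), Cyp51 of -0.49 (0.0883), Hsd17b7 of -0.39 (0.168) and Tm7sf2 of -0.10 (0.847). All 9 differences were negative, with a median of -0.64 against an all-gene median of -0.01. In 7 of 9, all but Tm7sf2 and Nsdhl, the XCT790 arrays lay wholly below control, against 11.4% of all genes.

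Sc5d alone kept its call in 24 of 24 other fits. The count fell to 1 without control replicate 2 or XCT790 replicate 2, where Sqle came to adjusted p of 0.0561 and 0.0576, and to 2 without control replicate 3 or XCT790 replicate 1, where Msmo1 came to 0.0880 and 0.0636 and Dhcr7 to 0.129 and 0.114. Dhcr7 also came to 0.0507 to 0.0541 without T3 replicate 3 or without replicate 1 or 2 of the arrays with both compounds, while Lss gained a call without T3 replicate 2 (0.0213). Msmo1 and Dhcr7 also missed the threshold under median scaling (0.0582 and 0.0681) and with only the compared arrays in the fit (0.0528 and 0.0618), and Dhcr7 with no filter on detection (0.0596). With the mean over its probes in place of the brightest, Lss moved to -0.31. Macrophage markers summed to 2501 to 3041 on the XCT790 arrays, near the lower end of control, and 0 of 10 passed.

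The T3 and XCT790 comparisons above and the next share the control arrays. With both compounds against control, 6 of the 9 rose. The rises were 3.23-fold for Sqle (log2 1.69, SE 0.24), 2.35-fold for Hsd17b7 (1.23, SE 0.14), 2.07-fold for Msmo1 (1.05, SE 0.16), 2.03-fold for Cyp51 (1.02, SE 0.15), 1.73-fold for Nsdhl (0.79, SE 0.21) and 1.58-fold for Dhcr7 (0.66, SE 0.19), and the limma adjusted p ran from 1.08e-04 (Hsd17b7) to 0.0323 (Dhcr7). Among all genes 8.97% were called higher. Lss, 0.57 higher, did not pass (adjusted p = 0.0727), nor did Tm7sf2 at 0.30 (0.284) or Sc5d at 0.12 (0.624). The signs of Tm7sf2 and Sc5d turned under median scaling in place of quantile normalization, to -0.04 and -0.21. The median of the 9 was 0.79, and 7 had arrays without overlap, against 16.9% of all genes.

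Nsdhl and Dhcr7 lost their calls without control replicate 1 or 2 or without replicate 1 or 2 of the arrays with both, at adjusted p of 0.0513 to 0.0829 and 0.0612 to 0.111. Under median scaling both calls were also lost, Nsdhl at 0.47 (0.139) and Dhcr7 at 0.33 (0.355), and Dhcr7 was lost with no filter on detection (0.0523). Lss gained one without T3 replicate 2 (0.0121) or 3 (0.0480). Macrophage markers summed to 3636 to 6323 with both compounds, against 2520 to 4321 in control, and 3 of 10 were called higher, Clec4f, Timd4 and Cd163; their part in these values was not tested.

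In mice that had XCT790, T3 raised 8 of the 9, all but Tm7sf2. The XCT790 arrays here are the same as in the comparison with control above, so the falls there and the rises here are not independent. Sc5d with both compounds was only 0.12 above control on the log2 scale, without passing. Sqle rose 7.50-fold (log2 2.91, SE 0.24), Msmo1 3.47-fold (1.79, SE 0.16), Hsd17b7 3.08-fold (1.62, SE 0.14) and Cyp51 2.86-fold (1.52, SE 0.15). Dhcr7, Nsdhl, Lss and Sc5d rose by 1.45, 1.31, 1.21 and 0.98 on the log2 scale. Limma adjusted p ran from 7.36e-06 for Sqle to 0.00199 for Lss, and among all genes 7.63% were called higher. Tm7sf2 was 0.40 higher (95% interval 0.00 to 0.79, adjusted p = 0.171). The median of the 9 was 1.45, against 0.00 over all genes, and 8 had arrays without overlap, against 16.2% of all genes. These 8 calls were made under each of the 12 other settings and each of the 12 fits that left out an array. Macrophage markers were at 3636 to 6323 on the arrays with both compounds, against 2501 to 3041 with XCT790 alone, and 6 of 10 were called higher. Sinusoidal endothelial markers summed to 8412 to 9038 with both and 7322 to 8185 with XCT790 alone, and 1 of 11, Kdr, was called higher. The part of these cells in the sterol values was not tested. With the mean over its probes, Lss was at 0.51 and still called (0.0209).

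XCT790 given on top of T3 changed 0 of the 9 by limma at the adjusted threshold of 0.05, where 0.0923% of all genes were called. At an unadjusted p under 0.05, 6 of the 9 were higher and 0 lower, against 6.37% of all genes higher. Differences that did not pass were 0.75 for Nsdhl, 0.62 for Cyp51, 0.62 for Lss, 0.46 for Dhcr7, 0.44 for Sqle, 0.38 for Hsd17b7 and 0.37 for Msmo1 on the log2 scale, with the lowest adjusted p at 0.147 (Cyp51). Tm7sf2 and Sc5d differed by -0.22 and -0.01. The arrays did not overlap in 6 of 9, on the higher side, against 10.4% of all genes, and the median was 0.44. Cyp51 was called with an intensity trend and a robust prior in the fit (adjusted p = 0.0424).

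**Figure D3:**
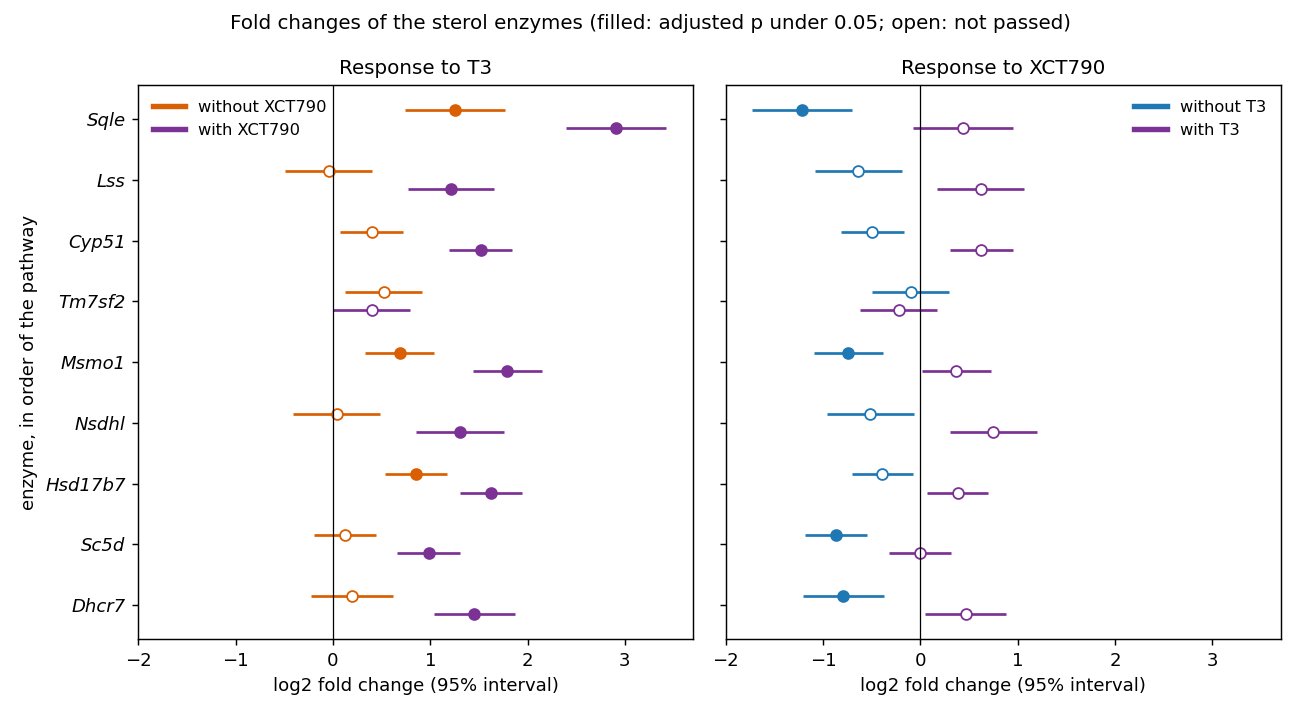
Log2 fold changes with 95% intervals for the 9 sterol enzymes, for T3 (left) without and with XCT790 and for XCT790 (right) without and with T3; filled points have a limma adjusted p under 0.05. Without T3 all 9 XCT790 points lie below 0, and with T3 they lie above 0 for 7 of 9.

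The interaction asks whether T3 acted differently in the presence of XCT790. It is the same number as the difference between the XCT790 responses with and without T3. The interaction uses the arrays of all 4 groups, control among them, so it cannot tell injection and compound apart. It was positive for 8 of the 9, with Tm7sf2 at -0.12, and a median of 1.12 against 0.02 over all genes. Cyp51 passed (log2 difference 1.12, SE 0.21, limma adjusted p = 0.0430), where 0.185% of all genes were called in that direction. Sqle had a larger estimate that did not pass (1.65, SE 0.33, adjusted p = 0.0543), as did Nsdhl (1.27, 0.0841), Lss (1.26, 0.0841) and Dhcr7 (1.26, 0.0638). With the mean over its probes Lss was at 0.43 (0.381). Msmo1 stood at 1.11 (0.0595), Sc5d at 0.86 (0.101) and Hsd17b7 at 0.77 (0.126). At an unadjusted p under 0.05 there were 8 of 9, against 6.69% of all genes higher.

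The count of calls ran from 0 to 7 of the 9 across settings, and Cyp51 held its call in 10 of 23 other fits. Without any of control replicates 1 to 3, T3 replicates 2 and 3, XCT790 replicates 2 and 3 and replicates 1 to 3 with both compounds, Cyp51 came to adjusted p of 0.0621 to 0.0992. Sqle passed without control replicate 1 (0.0288) and Dhcr7 without T3 replicate 1 (0.0421).

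The median over all genes moved under median scaling to -0.27 for both compounds against control, -0.17 for T3 in mice given XCT790, -0.22 for XCT790 in mice given T3 and -0.13 for the interaction, and the members' medians for both compounds against control and for XCT790 in mice given T3 were then 0.47 and 0.18. The share of higher genes among all calls moved from 47.9% to 12.1%, from 50.2% to 21.2%, from 77.8% to 16.7% and from 40% to 18.6% in the same order.

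Deviations within groups ran alike across the 9 enzymes on some arrays but not on others. Control replicate 1 was below its group mean for 9 of 9 (median -0.24 log2) and control replicate 3 above it for 9 of 9 (median 0.23). T3 replicate 2 was below for 8 of 9 (median -0.30), the exception being Sc5d, and replicate 1 with both compounds was above for 9 of 9 (median 0.14). Over all genes, 54%, 49.6%, 46.9% and 49.3% were above the group mean on these 4 arrays. The largest such gaps were -0.56 for Lss and -0.52 for Sqle. On XCT790 replicate 1, 7 enzymes lay above the group mean and 2 below. The split was 3 and 6 on XCT790 replicate 2, and 4 and 5 on replicate 3. Genes on the same array are not independent replicates.

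**Figure D4:**
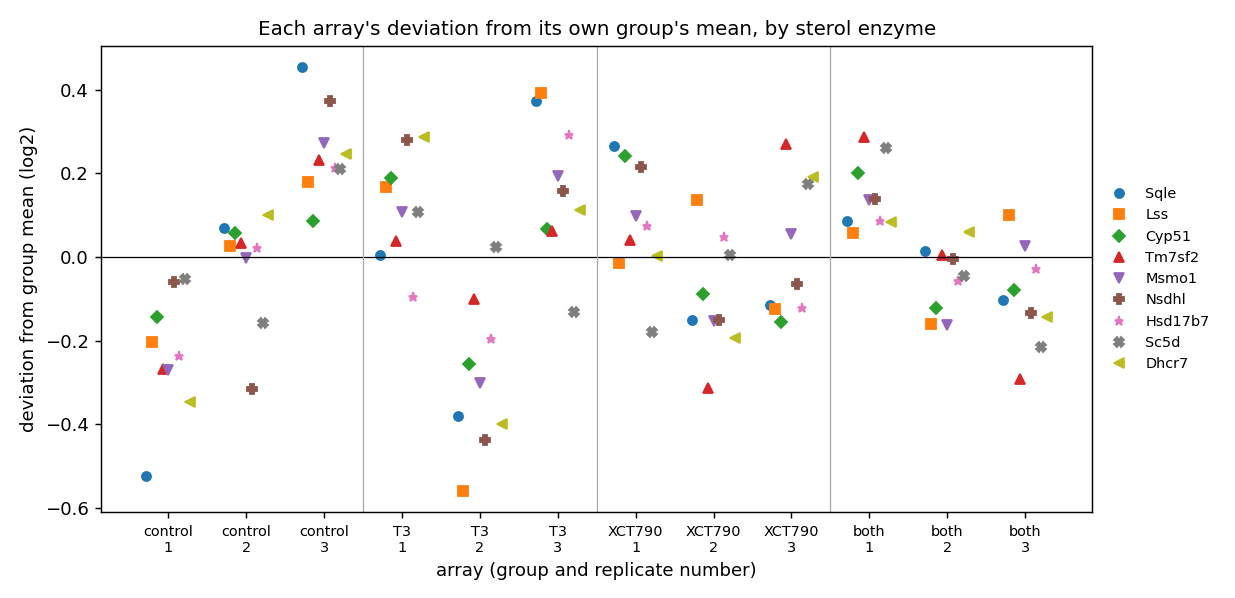
Deviation of each array from the mean of its own group (log2) for each of the 9 sterol enzymes, by array; "both" is XCT790 with T3. On control replicate 1 all 9 lie below 0 and on control replicate 3 all 9 lie above.

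The 9 genes have 17 probes, of which 15 were kept and 2 (for Sqle and Lss) were detected on 0 arrays. The 6 other kept probes belong to Sqle, Lss, Nsdhl and Hsd17b7. In a fit over all kept probes, 5 of the 6 were called higher for T3 in mice given XCT790, at log2 differences of 2.43 for Sqle, 1.53, 1.27 and 1.13 for Nsdhl and 0.86 for Hsd17b7. The second probe of Lss, detected on 12 arrays at group means of 5.45 to 5.82, stood at -0.19 without passing. That probe and the Hsd17b7 probe at 0.86, which was detected on 5 arrays at group means of 4.85 to 5.71, are both annotated to clone transcripts. For T3 against control 2 of 6 were called, a Sqle probe at 1.02 and a Nsdhl probe at 0.65, whereas the brightest Nsdhl probe stood at 0.04. For XCT790 against control 0 of 6 were called and 4 of 6 had the sign of the brightest probe, with the other Sqle probe at -0.73 (adjusted p = 0.0792), Lss at 0.02 and Hsd17b7 at 0.00. For the interaction 0 of 6 were called, and the Lss probe stood at -0.39. Judged by the brightest probe, 13.5% of all genes were called in that fit, in either direction, for T3 in mice given XCT790. The share was 14.8% for T3 against control, 3.56% for XCT790 against control and 0.462% for the interaction. Several probes of a gene on the same arrays are not independent.

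Enzymes before squalene were represented by 5 of 10 listed genes. With XCT790 alone 1 was called lower, Mvd, the decarboxylase that makes isopentenyl diphosphate, at -1.18 on the log2 scale (limma adjusted p = 0.00778), and the 5 had a median of -0.61. Mvd was also called higher with T3 (0.86, adjusted p = 0.0138) and was the 1 enzyme of the 5 called for the interaction (1.90, adjusted p = 0.0178). For T3 in mice given XCT790, 4 of 5 were called higher, with Mvd at 2.77, Idi1 at 1.18 and Pmvk at 1.14, and with both compounds against control 3 of 5 were called higher. Of XCT790 in mice given T3, 0 of 5 were called.

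Of 6 other genes listed beside this stretch, not all of them enzymes within it, Ebp, Erg28 and Lbr were tested. Ebp, the isomerase, did not pass in any of the 6 comparisons, and its largest log2 difference was 0.15 for the interaction (95% interval -0.13 to 0.42). Lbr, the second sterol reductase named above beside Tm7sf2, was called higher with both compounds (0.71) and for T3 in mice given XCT790 (0.52). No other call was made among these 3.

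Of 4 genes listed as electron donors to the oxidising steps, 3 were tested, all of the cytochrome b5 branch. All 3 were called lower with T3 against control, against 8.91% of all genes. Por, the other listed donor, could not be tested. Cyb5b fell by 0.80, Cyb5a fell by 0.59 and Cyb5r3 fell by 0.47 on the log2 scale (limma adjusted p = 0.00134, 0.0022 and 0.0164), while Msmo1 rose. Cytochrome b5 in the form that Cyb5a encodes is known to pass electrons to Sc5d and Msmo1. Whether Cyb5b serves these enzymes was not tested. With both compounds against control 2 of 3 were called lower, against 9.77% of all genes, and Cyb5r3 did not pass (-0.26, limma adjusted p = 0.143). For T3 in mice given XCT790, 1 of 3 was called lower, Cyb5a at -0.65 (0.00141), against 7.56% of all genes. There Cyb5b stood at -0.245 (0.237) and Cyb5r3 at -0.17 (0.377) without passing. With XCT790 alone 0 of 3 were called.

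Genes of sterol regulation, uptake and disposal were tested in 10 of 18 cases. Srebf2 rose with T3 by a log2 difference of 0.99 and, in mice given XCT790, by 0.94 (limma adjusted p = 0.00184 and 0.00298), and with XCT790 alone it differed by 0.19 without passing. Insig2, which holds the SREBP complex in the endoplasmic reticulum, was -0.99 with XCT790 (adjusted p = 0.0345) and 1.49 with T3 in mice given XCT790 (0.0012). Cyp7a1, which commits cholesterol to bile acids, rose by 2.06 with T3 and by 1.48 with XCT790, and Abcg5, a sterol exporter, by 0.85 with T3. The list had 4 called higher and 1 lower with T3, 1 and 1 with XCT790, and 4 and 1 with both against control. It had 3 and 0 for T3 in mice given XCT790, and 0 in the other comparisons. Stard4 was the gene called lower with T3 and with both, at -0.58 in each (limma adjusted p = 0.0394 and 0.037). For T3 in mice given XCT790, Stard4 stood at 0.04 without passing.

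**Figure D5:**
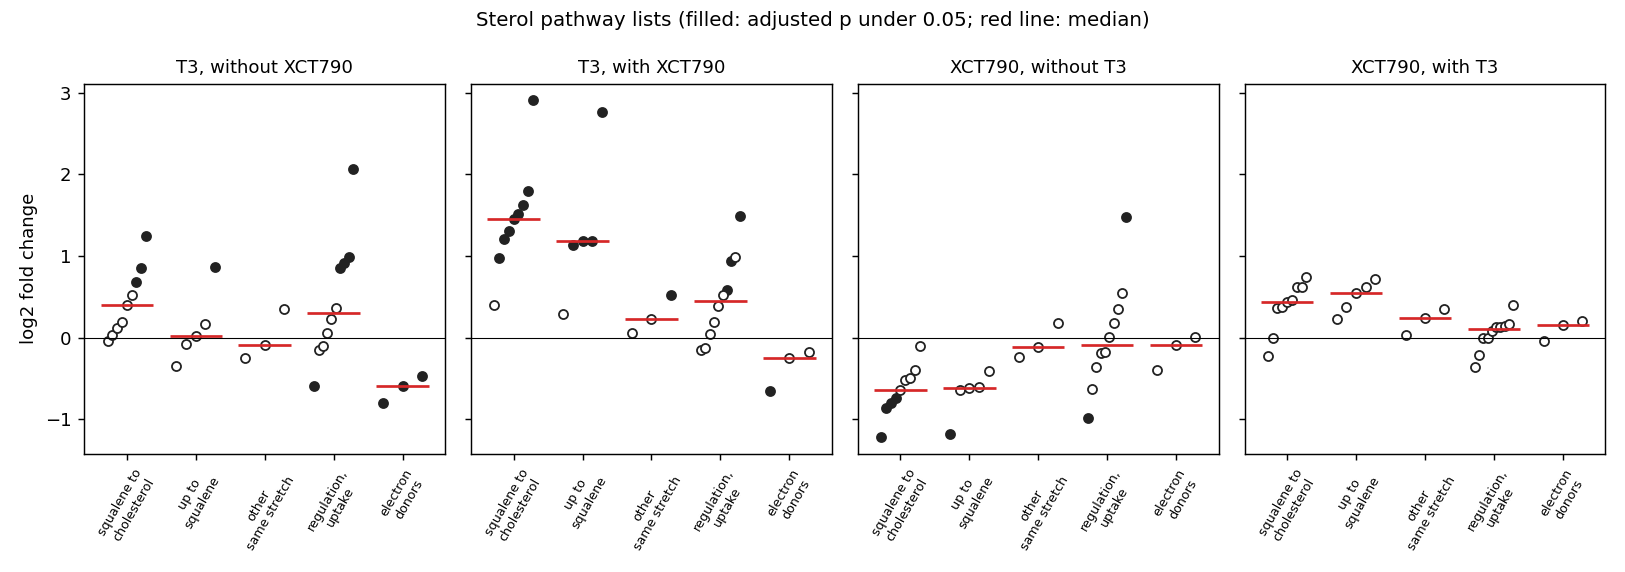
Log2 fold changes of every tested gene in 5 lists of the sterol pathway, in 4 comparisons; filled points have a limma adjusted p under 0.05 and red lines are medians. The 9 enzymes from squalene to cholesterol have medians of 0.40 and 1.45 for T3 without and with XCT790, and of -0.64 and 0.44 for XCT790 without and with T3.

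Members differed in how closely they followed their mean profile, taken as the 4 group means of each gene centred on their own mean. The root mean square difference was 0.09 for Dhcr7 and 0.10 for Cyp51, and 0.60 for Sqle and 0.38 for Tm7sf2 at the far end. Other tested genes with clone or predicted names were set aside, which left 9447. Among these, the 5 most alike by that measure were Tnfaip2 (0.06), Mapkapk3 (0.08), Cdkn3 (0.08), Cdca8 (0.10) and Gadd45a (0.11), over 4 groups only.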

How the data were processed

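Liver RNA was hybridized to 12 Illumina bead arrays. The authors deposited, per the file headers, non-normalized probe intensities and detection p-values. They also deposited a matrix of quantile-normalized intensity, which was used on the log2 scale as an alternative. It differed by at most 3.33e-06 from a quantile normalization of the non-normalized intensities. The alternative with no background correction is therefore nearly the same setting, and these 2 fits are not separate support. The submitters' processing notes name Partek 6.6, without the step. Intensities were background-corrected (limma normexp from detection p-values, offset 16), put on the log2 scale and quantile-normalized (limma 3.58.1, R 4.3.3). Probes with detection p under 0.05 on at least 3 of 12 arrays were kept, 17218 of 45281. The brightest probe stood for each of 9747 genes; names came from the platform annotation. Group means were fitted over all 12 arrays and 6 contrasts tested with eBayes, two-sided, with Benjamini-Hochberg adjustment over all genes, threshold 0.05. Fold changes of dim genes are understated by the offset. The number of arrays limits precision.

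Named genes are the 9 members, up to 3 genes per list with the lowest p in a contrast, 5 genes most like the members, and Thrsp, Dio1 and Esrra. Lbr, Ebp and the genes named for a list of cell type markers follow their lists. The members, lists and tests were chosen with earlier results of these data known. Same-numbered arrays correlated at -0.13 to 0.13 in their deviations, over 0.1 in 1 of 15 pairs, so the numbers were not taken to pair samples. Alternatives were other background corrections, scalings, filters, probe summaries, variance models, arrays in the fit, a replicate block and leaving out each array. The fit over all kept probes was chosen after seeing the data. The procedure was tested on simulated data.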

Additional observations from a re-analysis of the deposited data

Results flagged for a closer look

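For 5 of the enzymes, every XCT790 array lay below every control array without T3, and every array with both compounds lay above every array with T3 alone, so that the arrays separated in opposite directions. The same held for 0.79% of all 9747 genes. The log2 difference between the XCT790 responses was 1.26 for Lss (limma adjusted p = 0.0841), 1.12 for Cyp51 (0.0430), 1.11 for Msmo1 (0.0595), 0.77 for Hsd17b7 (0.126) and 1.26 for Dhcr7 (0.0638). With the mean over its probes, the value for Lss was 0.43. Only Cyp51 passed the test of that difference, and it did so in 10 of 23 other fits. The control arrays are part of that difference, so injection and compound cannot be told apart in it.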

How the results depend on the processing

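The count of 8 for T3 in mice given XCT790 was 8 in each of 24 other fits. Among the fits, no background correction and the deposited matrix are nearly the same setting, so their like counts are not separate results. For T3 against control it was 5 of 9 with no background correction, with the deposited matrix and with an intensity trend and robust prior, against 3, and 2 to 4 when an array was left out. For XCT790 against control it was 2 with median scaling or only the arrays compared, against 4, and 1 to 5 when an array was left out. With both compounds against control it was 4 to 7. For XCT790 in mice given T3 it was 1 with the trend and robust prior, against 0. The interaction count, 1, became 7 with no background correction, the deposited matrix or the trend and robust prior, 6 with an offset of 50, 4 with a stricter filter or array weights, 2 with the mean over probes, and 0 with median scaling, no filter or the replicate block, and it ranged from 0 to 2 when an array was left out. No other count left 1.5 times its value under the replicate block, which gave 3 for XCT790 against control with Dhcr7 lost (adjusted p = 0.0594). Signs turned for values near 0. Tm7sf2 and Sc5d for both compounds went to -0.037 and -0.21 with median scaling, Lss for T3 to 0.077 with the mean over probes, and Sc5d for XCT790 in mice given T3 to 0.0019 with array weights. When an array was left out, Lss for T3 ranged from -0.24 to 0.23, Nsdhl for T3 from -0.12 to 0.26, Sc5d for XCT790 in mice given T3 from -0.14 to 0.10, Sc5d for both compounds from -0.012 to 0.23, Tm7sf2 for XCT790 from -0.23 to 0.058 and Tm7sf2 for the interaction from -0.28 to 0.022. The causes were not tested. No array headers name a chip, so no fit with the chip as a block was run.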
